A study of Homo sapiens with 18 samples.

Results

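Gene expression was compared between 6 RNA-seq libraries of the THP-1 line labelled Siglec-5 (S5) and 6 libraries of the line labelled empty vector (EV), 12 of the 18 libraries of the series. THP-1 is an established human monocytic leukaemia cell line. All cells had received 100 nM of the phorbol ester PMA for 24 h, which turns THP-1 into macrophage-like cells, followed by 48 h in mock medium or in 50% conditioned medium (CM) from SW620 cells, an established line of colorectal cancer. There were 3 libraries each of EV mock, S5 mock, EV CM and S5 CM. Another line, labelled Siglec-14 (S14), has 6 libraries and is used only where it is named. The labels do not give the vector, its promoter, whether a line is a clone or a pool, or whether a replicate was a culture of its own. The p-values therefore measure the spread between these libraries, which may be technical. With 1 EV and 1 S5 line, the effect of the receptor and any other difference between the lines cannot be told apart.

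Siglecs are receptors of immune cells that bind sialic acids on the surface of cells and microbes. Siglec-5 carries a tail with inhibitory tyrosine motifs that can recruit the phosphatases SHP-1 and SHP-2, whereas Siglec-14 has a short tail and pairs with the activating adaptor DAP12. The genes lie next to each other on chromosome 19 and their first exons are almost the same, so short reads cannot always be assigned to one of them. In the GENCODE 29 transcripts the first 642 coding bases of SIGLEC5 and SIGLEC14 were identical, and the shared run is followed by the stretch in which the genes part. Coding bases 623 to 742 of both are shown, 5′ to 3′ on the minus strand of chromosome 19, because the first difference falls here. Capitals mark the 17 positions at which the bases differ when the stretches are set side by side without gaps.
SIGLEC5: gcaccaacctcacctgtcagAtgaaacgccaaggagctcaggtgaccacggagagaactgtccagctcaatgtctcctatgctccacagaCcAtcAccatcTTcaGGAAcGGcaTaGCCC
SIGLEC14: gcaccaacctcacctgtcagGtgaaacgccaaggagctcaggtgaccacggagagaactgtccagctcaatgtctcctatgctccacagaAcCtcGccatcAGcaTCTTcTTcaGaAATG

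The main SIGLEC5 gene model was not counted at a higher level in S5, while a second model had reads in S5 only. The SIGLEC5 gene (ENSG00000105501, chromosome 19, 51611927 to 51645545, GRCh38) had 10 to 20 reads in each S5 library and 8 to 24 in each EV library. This is 0.713 ± 0.186 counts per 1 M counts of a library (CPM) in S5 and 0.746 ± 0.285 in EV (SD, n = 6 each; exact two-sided permutation over the 6 pairs, p = 0.938), and the libraries overlapped throughout. The counts check little, since 97.8% of the SIGLEC5 coding bases lie in exons of a second, overlapping SIGLEC5 gene model (ENSG00000268500), and no source used here says how shared reads were counted. Exons of the second model also hold 35.4% of the SIGLEC14 coding bases. That second model had 3 to 6 reads in every S5 library, 28 in all, and 0 in every EV library, where a count of 0 allows up to 3 reads. It was higher in S5 in 6 of 6 pairs (exact two-sided permutation p = 0.0312). The libraries are therefore called S5 and EV as labelled.

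SIGLEC14 rose in S5. Its CPM (ENSG00000254415, chromosome 19, 51642553 to 51646801) was 45.9, 44.0 and 31.0 in S5 mock replicates 1 to 3 against 20.9, 21.1 and 13.7 in EV mock. In conditioned medium it was 44.5, 30.7 and 39.4 in S5 against 23.7, 22.0 and 16.9 in EV. Every S5 library was above every EV library, with a log2 fold change of 1.01 ± 0.11 (standard error; edgeR quasi-likelihood test, Benjamini-Hochberg adjusted p = 0.000708) and a higher value in 6 of 6 pairs of the same medium and replicate number (exact two-sided permutation p = 0.0312, the smallest that 6 pairs can give). Given the shared bases, SIGLEC5 reads counted as SIGLEC14 and SIGLEC14 RNA itself cannot be told apart. The S5 level was far below the 718 ± 166 CPM of the S14 line, against 37.4 ± 6.49 in S5 when all 18 libraries were scaled together (SD, n = 6 each). Other genes high in the S14 line were low in S5, with 3.95 CPM of CSF1 in S5 against 617 in S14 and 0.115 CPM of IGFN1 against 125.

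**Figure D1:**
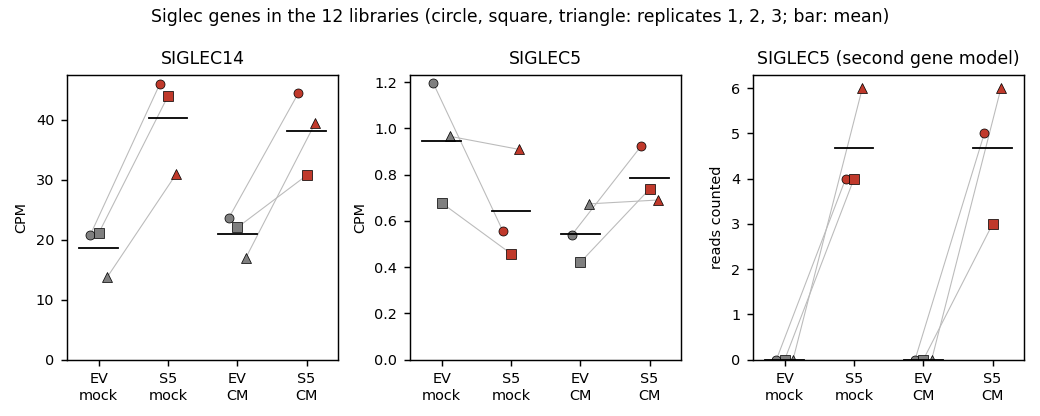
CPM of SIGLEC14 and SIGLEC5 and reads counted for the second SIGLEC5 gene model (y axes) in each of the 12 libraries by group (x axis), with lines joining EV and S5 libraries of the same replicate number and bars for means. SIGLEC14 was at least 30.7 CPM in S5 and at most 23.7 in EV, SIGLEC5 overlapped, and the second model had reads in S5 libraries only.

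Library totals ranged from 17.0 to 25.6 M counts, with 21.8 ± 2.77 M in EV and 21.1 ± 2.70 M in S5 (SD, n = 6 each). Replicate 3 stood apart from replicates 1 and 2 in all 4 groups, and principal component 1, with 49.2% of the variance, separated it. Component 2 (13.7%) separated the lines most widely within replicate 3, at 33.6 and 39.2 in EV and -27.2 and -30.5 in S5. In replicates 1 and 2 it separated the lines within each medium, by less. The libraries of replicate 3 had 5.05 ± 0.0849% of counts from mitochondrial genes (SD, n = 4), against 3.83 ± 0.684% in replicate 1 and 3.95 ± 0.779% in replicate 2. Of 10 macrophage markers, 0 were called, and their summed level was 5304 to 5908 CPM in EV and 4693 to 5905 in S5. One of them, CD68, was at only 0.791 CPM in EV and 1.09 in S5. Of 20 colorectal epithelial markers, which SW620 RNA would bring, 5 were at 0 in every EV library and 8 in every S5 library, EPCAM, KRT19 and KRT20 among them, and the sums were 14.6 to 23.1 and 18.1 to 28.1 CPM, mostly CLDN7. Of 16 lymphocyte markers 8 were tested and 0 called, and CD3E and CD8B were at 0 in every library. Their sums were 521 to 619 CPM in EV and 508 to 599 in S5, mostly CD4 (550 and 521 CPM), which macrophages express too.

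To determine what the lines had in common in both media, 1 line effect was fitted over the 12 libraries with medium and replicate number as further terms. Of 17243 genes tested, 608 (3.53%) were called at an adjusted p under 0.05, 380 higher in S5 (2.2%) and 228 lower (1.32%). The differences were small: the median rise was 1.48-fold (log2 0.57), the median fall was 0.48 on the log2 scale, and 101 genes (0.586%) moved at least 2-fold. All 608 had the same sign in mock and in conditioned medium, which calling genes by 1 effect over both media favours. Of the 608 called genes, 572 (3.32% of the 17243 tested) went the same way in all 6 pairs. Among all genes tested, called or not, 2164 (12.6% of the 17243) did so. Of the 608, 120 (0.696% of the 17243) had no overlap between the lines' libraries. Among all genes tested, called or not, 191 (1.11% of the 17243) had none. Over all genes tested the median was 0.01.

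The count depended on which libraries were used. It was 306 to 828 with single libraries left out, the lowest without S5 mock replicate 1 and the highest without S5 mock replicate 2, and 228 of the 608 genes were called in all 12 such fits. It was 49 without replicate 1, 103 without replicate 2 and 1342 (7.82% of the genes then tested) without replicate 3, of which 466 were among the 608. Without the replicate number as a term it was 21. Within 1 medium, a fit with 1 mean per group and the replicate number called 6 genes in mock (0.0348%) and 4 in conditioned medium (0.0232%).

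**Figure D2:**
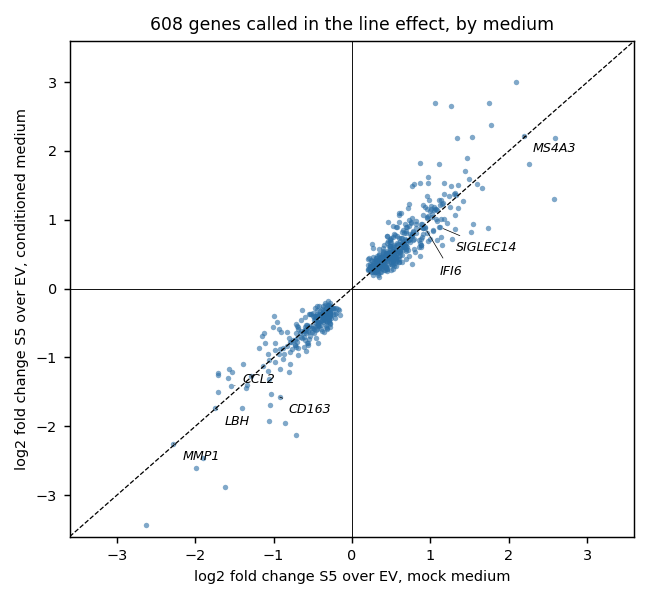
Log2 fold change of S5 over EV in mock medium (x axis) and in conditioned medium (y axis) for the 608 genes called in the line effect, 1 point per gene, with the dashed line marking equal values. All points lie in the quadrants of equal sign, as calling genes by 1 effect over both media favours, and genes that were not called are not drawn.

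Among the larger falls, 6 genes named here had separate libraries in the lines. LBH, a transcription cofactor of the WNT pathway (chromosome 2, 30231369 to 30323730), was at 16.5, 18.6 and 17.7 CPM in EV mock and 6.79, 6.37 and 2.96 in S5 mock, and at 12.3, 10.8 and 15.2 in EV CM and 4.74, 4.38 and 2.76 in S5 CM. All S5 libraries lay below all EV libraries, and LBH fell by 1.74 ± 0.18 on the log2 scale (adjusted p = 0.000708). ANKH, a membrane protein of pyrophosphate export, fell from 12.7 ± 2.19 to 4.99 ± 1.17 CPM (SD, n = 6 each, as for all CPM means that follow). NRP2, the neuropilin 2 co-receptor of semaphorins and VEGF, fell from 13.7 ± 2.61 to 6.01 ± 2.76 CPM, and the proteoglycan SPOCK1 from 20.8 ± 6.75 to 9.80 ± 1.77 CPM. SLC44A5, of the choline transporter-like family, fell from 9.27 to 3.98 CPM, and GVINP1, a pseudogene of an interferon-induced GTPase family with near-identical copies, from 3.04 to 1.11. None of these 6 genes overlapped between lines, and each kept its call with any single library left out.

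Further large falls were those of GALNT16, an O-glycosylation enzyme (4.97 to 1.84 CPM), the calcium-binding S100B (2.95 to 1.12), the growth factor receptor EGFR (2.36 to 1.09), the adhesion protein CLMP (2.83 to 0.969) and TMEM200A (2.98 to 1.21). Their libraries overlapped. Of these, GALNT16 alone kept its call with each library left out, S100B lost it without EV mock 3, and EGFR, TMEM200A and CLMP lost it without 4, 4 and 10 of the 12 libraries (adjusted p up to 0.123). The neighbouring G protein-coupled receptor genes GPR34 and GPR82 on chromosome X fell by 0.91 ± 0.11 and 0.68 ± 0.09 on the log2 scale. They were named after their values were seen.

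The rises were led by genes of low level. CERCAM rose from 12.0 ± 5.61 to 27.4 ± 8.59 CPM, a log2 fold change of 1.26 ± 0.10 (adjusted p = 0.000131), and FAM163A from 3.24 ± 0.935 to 7.86 ± 2.30 and RHEX from 0.954 to 2.25 CPM, these last without overlap. The potassium channel gene KCNQ5 rose from 1.56 to 5.28 CPM, the myeloid serpin SERPINB10 from 1.53 to 5.41, PPP1R27 from 2.51 to 7.68, the transcription cofactor DACH1 from 2.16 to 6.10 and the membrane protein SERINC2 from 1.64 to 4.14. GIPR, the receptor of an incretin hormone, rose from 1.12 to 2.89 CPM and CAV1, the scaffold of caveolae, from 3.51 to 9.35. These kept their calls with each library left out. The defensin DEFB1, the kinase NIM1K, NEGR1 and the cyclin CCNA1 rose 1.21 to 1.67 on the log2 scale and lost their calls without 8, 7, 5 and 1 of the 12 libraries (adjusted p up to 0.117). The S5 libraries of replicate 3 stood apart in several of these genes. SERPINB10 was at 12.0 and 13.0 CPM in S5 replicate 3 of mock and conditioned medium and at 1.33 to 2.42 in the other S5 libraries. KCNQ5 was at 11.4 and 9.71 CPM there against 2.06 to 3.21, and PPP1R27 at 21.8 and 11.7 against 2.14 to 4.14. Among S5 libraries, DEFB1, DACH1, SERINC2, CAV1, NIM1K, CCNA1 and FAM163A were also highest in those of replicate 3. SERPINB10, KCNQ5, PPP1R27, DEFB1 and SERINC2 were highest in replicate 3 among EV libraries too. SERINC2 was at 2.37 and 3.37 CPM in EV replicate 3 of mock and conditioned medium and at 0.766 to 1.31 in the other EV libraries.

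**Figure D3:**
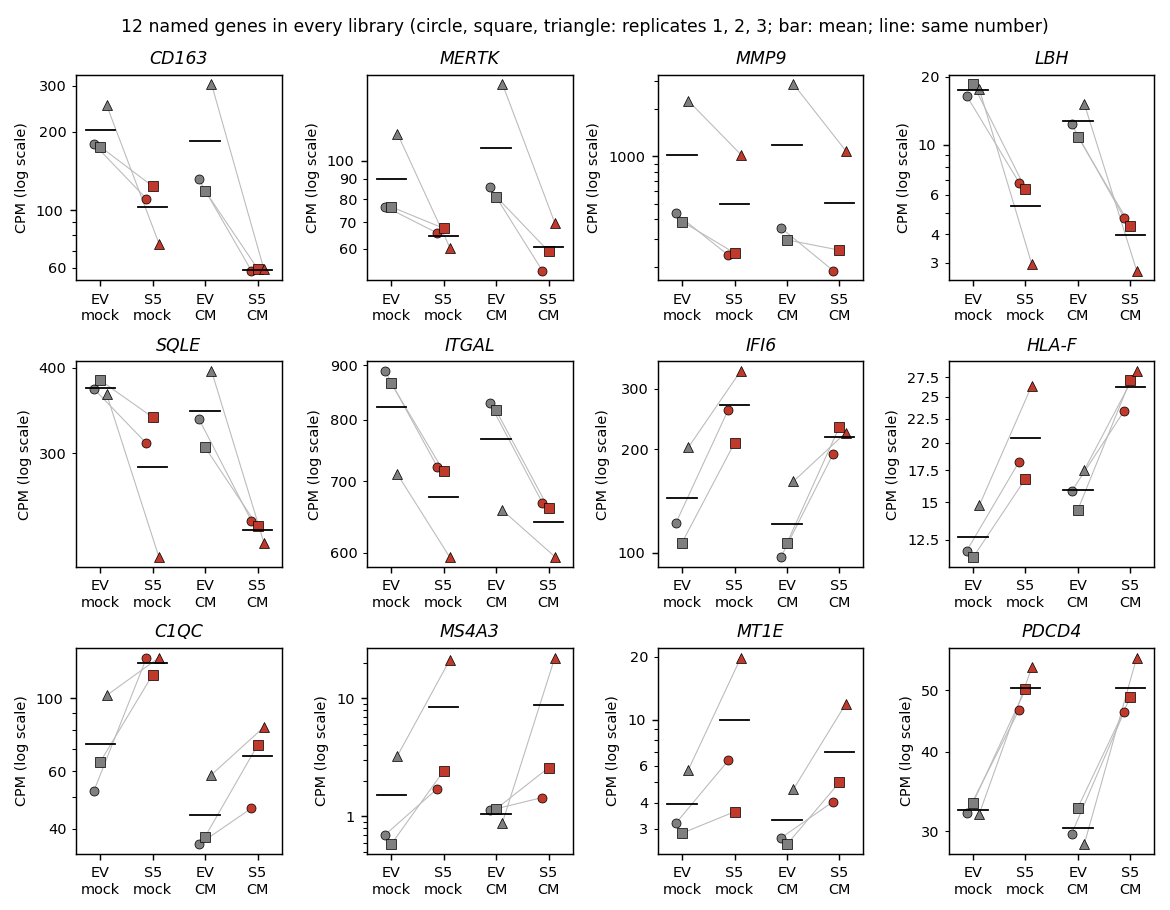
CPM on a log axis (y) of 12 genes in each library by group (x axis), with lines joining EV and S5 libraries of the same replicate number and bars for means. Each line slopes down for CD163, MERTK, MMP9, LBH, SQLE and ITGAL and up for IFI6, HLA-F, C1QC and PDCD4, and replicate 3 (triangles) lies apart in both lines for MMP9 and in S5 for MS4A3 and MT1E.

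Among the Siglecs themselves, 5 of 13 tested members were called, 2 higher and 3 lower (38.5% of members against 3.53% of all genes), with a median of -0.11. SIGLEC14, whose counts cannot be told apart from SIGLEC5 reads, is among the 5. For this and the lists that follow, 2.2% of all genes were called higher and 1.32% lower, or 4% and 3.82% in the fit without replicate 3, in which more genes of any kind were called. SIGLEC11, an inhibitory receptor, fell from 50.3 ± 5.50 to 32.1 ± 3.84 CPM, and its neighbour SIGLEC16, the activating counterpart with near-identical sequence, from 51.3 ± 3.82 to 33.4 ± 4.03. Both had no overlap between lines, fell by 0.65 ± 0.08 and 0.61 ± 0.09 on the log2 scale (adjusted p = 0.00156 and 0.00269), and may share reads. The inhibitory SIGLEC7 fell from 34.7 to 24.7 CPM and the macrophage receptor SIGLEC1 rose from 50.1 to 75.1, both with overlap. The calls of SIGLEC14, SIGLEC11 and SIGLEC16 were kept with each library left out, those of SIGLEC1 and SIGLEC7 were lost without 9 and 7 of the 12 libraries (adjusted p up to 0.0812 and 0.0713), and without the block for replicate number 1 member was called higher and 2 lower.

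Genes that act below these receptors did not pass the test. Of 27 phosphatase, kinase and adaptor genes of inhibitory and activating motif signalling, 0 were called (2 without replicate 3), and the DAP12 gene TYROBP was at 731 CPM in EV and 727 in S5. The Src family kinase LYN was at 240 ± 57.5 CPM in EV and 182 ± 7.60 in S5 (adjusted p = 0.0692) without overlap, and the adaptor HCST at 23.5 and 28.2 CPM (adjusted p = 0.0932). Of 12 genes that make, transport or remove sialic acid 0 were called, the activating enzyme CMAS standing at 54.8 CPM in EV and 46.9 in S5 and the Golgi transporter SLC35A1 at 26.4 and 31.9. Of 13 sialyltransferases, ST3GAL4 rose from 28.3 to 44.3 CPM and ST8SIA5 fell from 13.3 to 9.61. They lost their calls without 3 and 6 of the 12 libraries (adjusted p up to 0.063 and 0.0621).

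Several genes of scavenging and tumour-associated macrophages fell in S5. CD163, the haemoglobin-haptoglobin scavenger receptor (chromosome 12, 7470813 to 7503893), was at 179, 175 and 254 CPM in EV mock and 111, 123 and 74.4 in S5 mock. In conditioned medium it was at 131, 119 and 305 CPM in EV and 58.6, 59.6 and 59.3 in S5. Within each medium the S5 libraries lay below the EV libraries, and across media S5 mock replicate 2 overlapped with EV CM replicate 2. CD163 fell by 1.24 ± 0.27 on the log2 scale (adjusted p = 0.0415), a call kept only without S5 mock 2 or EV CM 3 (adjusted p up to 0.101 without others). In bulk RNA, fewer cells with a transcript and less of it per cell cannot be told apart.

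MERTK, the receptor tyrosine kinase of apoptotic cell uptake, was at 76.6, 76.5 and 117 CPM in EV mock and 65.8, 67.6 and 60.4 in S5 mock, and at 86.0, 81.3 and 156 in EV CM and 52.9, 59.2 and 69.7 in S5 CM. The lines did not overlap, and MERTK fell by 0.61 ± 0.13 on the log2 scale (adjusted p = 0.026), a call lost without EV mock 3, EV CM 1 or any of the S5 CM libraries (adjusted p up to 0.0826). The complement receptor VSIG4 fell from 199 ± 39.1 to 149 ± 39.4 CPM and the β-glucan receptor CLEC7A (Dectin-1) from 18.9 ± 5.00 to 11.5 ± 3.80, each lower in 6 of 6 pairs and called with any library left out. The crosslinking enzyme TGM2 fell from 14.6 to 9.86 CPM and lost its call without 9 of the 12 libraries (adjusted p up to 0.0791). Of 24 alternative activation and tumour-associated macrophage markers 0 were called higher and 4 lower, with a median of -0.13 that was 0.01 without replicate 3 (4 higher, 5 lower). Of 29 identity and scavenging genes 2 were called higher and 2 lower (13.8%, against 3.53% of all genes), with a median of -0.06, and 6 and 4 without replicate 3, with a median of 0.05.

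Complement genes moved in both directions. C1QC, a chain of C1q, was at 52.3, 64.0 and 102 CPM in EV mock and 132, 118 and 133 in S5 mock, and at 35.9, 37.9 and 58.4 in EV CM and 46.2, 71.9 and 81.7 in S5 CM. It was higher in S5 in 6 of 6 pairs while the lines overlapped across media, with a log2 fold change of 0.74 ± 0.12 (adjusted p = 0.00762). C1QB, next to it on chromosome 1, rose from 9.37 to 16.9 CPM, and C1QA was at 69.4 and 98.0 CPM without passing the test (adjusted p = 0.15). The alternative pathway protease CFD rose from 146 ± 34.5 to 222 ± 72.1 CPM, and the receptor CR1 fell from 17.2 to 11.7. In all, 3 of 19 complement genes were called higher and 1 lower, against 2.2% and 1.32% of all genes. The call of C1QB was lost without 10 of the 12 libraries (adjusted p up to 0.113) and the other 3 were kept without each.

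Among receptors of adhesion and cell contact, ITGAL, the LFA-1 α chain, fell from 795 ± 90.8 to 659 ± 55.9 CPM and ITGA6 from 71.8 to 54.7, the only calls of 15 leukocyte integrins. Of these 15 genes, 14 had estimates below 0 (median -0.27, and -0.09 without replicate 3, with 1 then higher and 2 lower). ITGAL and ITGA6 lost their calls without 6 and 7 of the 12 libraries (adjusted p up to 0.0697 and 0.0634). Of 20 checkpoint and T cell ligand genes, SIRPA, the receptor of the CD47 signal, fell from 331 ± 20.8 to 276 ± 35.2 CPM, VSIG4 fell as above, and TNFSF9 (4-1BB ligand) rose from 7.46 to 9.77. SIRPA and TNFSF9 lost their calls without 11 and 10 of the 12 libraries (adjusted p up to 0.0892 and 0.114). Of 11 chemokine receptors 0 were called, CXCR4 being at 44.0 CPM in EV and 67.7 in S5.

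Some interferon-stimulated genes rose. IFI6, a mitochondrial interferon-induced protein (chromosome 1, 27666061 to 27672218), was at 122, 107 and 203 CPM in EV mock and 261, 209 and 339 in S5 mock. In conditioned medium it was at 96.8, 107 and 161 CPM in EV and 194, 233 and 224 in S5. The lowest S5 library overlapped with EV mock replicate 3, each pair was higher in S5, and the log2 fold change was 0.91 ± 0.10 (adjusted p = 0.000981). LY6E, a membrane protein that restricts virus entry, rose from 28.1 ± 5.71 to 53.9 ± 17.3 CPM and IFIT1, which binds viral RNA, from 1.56 ± 0.362 to 2.96 ± 0.783, IFIT1 without overlap. The transcription factor IRF7 rose from 19.9 to 36.0 CPM and TRIM22 from 13.6 to 18.7, and the guanylate-binding GTPase GBP1 fell from 31.9 to 19.4. In all, 5 of 46 members were called higher and 1 lower (median 0.15), against 2.2% and 1.32% of all genes. Without replicate 3 these were 11 and 1, against 4% and 3.82%. IRF7, TRIM22 and GBP1 lost their calls without 8, 11 and 8 of the 12 libraries (adjusted p up to 0.0898, 0.0904 and 0.084), and 0 of the 6 were called without the replicate block. ISG15 was at 9.95 CPM in EV and 11.5 in S5 (adjusted p = 0.385).

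The promoters of IFI6 and IFIT1, the members called higher that the RefSeq promoter table (GRCh38.p14, 250 bases before to 50 after the start) held, are shown because they can be read for the interferon-stimulated response element. The motif searched was GAAA, then NN, then GAAA, on both strands, and capitals mark matches. It was found in 996 of 27305 promoters (3.65%) and in 22 of the 35 promoters of list members in the table. A match is a description of letters and not of a bound site. The IFI6 promoter (chr1:27672143-27672442, minus strand) has 3 matches, beginning 156, 115 and 93 bases before the start, and the IFIT1 promoter (chr10:89392373-89392672, plus strand) has 2, beginning 116 and 103 bases before it.
IFI6: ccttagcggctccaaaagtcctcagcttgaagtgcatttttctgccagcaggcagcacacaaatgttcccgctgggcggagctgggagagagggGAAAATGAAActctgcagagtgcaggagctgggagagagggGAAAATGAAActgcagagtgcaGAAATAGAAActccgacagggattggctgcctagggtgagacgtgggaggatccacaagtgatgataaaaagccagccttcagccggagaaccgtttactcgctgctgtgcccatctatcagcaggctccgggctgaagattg
IFIT1: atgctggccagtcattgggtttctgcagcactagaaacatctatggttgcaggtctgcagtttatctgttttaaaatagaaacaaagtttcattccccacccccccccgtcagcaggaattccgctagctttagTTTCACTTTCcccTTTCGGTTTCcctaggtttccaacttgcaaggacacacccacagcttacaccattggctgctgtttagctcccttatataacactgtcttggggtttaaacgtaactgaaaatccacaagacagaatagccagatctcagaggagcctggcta

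Of the antigen presentation genes, HLA-F and HLA-DRA rose. HLA-F, a non-classical MHC class I gene (chromosome 6, 29722775 to 29738528), was at 11.8, 11.5 and 14.8 CPM in EV mock and 18.3, 16.8 and 26.4 in S5 mock, and at 15.8, 14.5 and 17.5 in EV CM and 23.4, 27.2 and 28.4 in S5 CM. It overlapped between lines across media only and rose by 0.70 ± 0.08 on the log2 scale (adjusted p = 0.000943), the only call of 16 class I and peptide-loading genes. Of 10 MHC class II genes HLA-DRA rose, from 1.46 to 2.88 CPM, and all 10 estimates were above 0 (median 0.34, and 0.34 without replicate 3 with 4 of 9 then called higher). The class II transactivator CIITA was at 1.87 CPM in EV and 3.21 in S5 (adjusted p = 0.0551).

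The matrix proteases MMP9, MMP1 and MMP8 fell. MMP9, a gelatinase (chromosome 20, 46008908 to 46016561), was at 436 and 387 CPM in EV mock replicates 1 and 2 and 2238 in replicate 3, against 238, 245 and 1026 in S5 mock. In conditioned medium it was at 354, 297 and 2865 CPM in EV and 190, 256 and 1083 in S5. Replicate 3 was several times higher than the others in both lines, each pair was lower in S5, and MMP9 fell by 0.87 ± 0.14 on the log2 scale (adjusted p = 0.00675). The neighbouring collagenases MMP1 and MMP8 on chromosome 11 had log2 fold changes of -2.27 ± 0.37 and -3.01 ± 0.56, from 2.25 to 0.419 and from 4.30 to 0.399 CPM, and TIMP3, a metalloproteinase inhibitor, rose from 28.6 to 39.3. MMP8 was lower in 5 of 6 pairs, overlapped between lines and varied more among EV libraries (SD 5.94 CPM) than its mean, and it lost its call without EV mock 3, S5 mock 3 or S5 CM 3 (adjusted p up to 0.092). The SD of MMP1 among EV libraries was 2.19 CPM, near its mean. TIMP3 lost its call without S5 mock 1 or S5 CM 2 (adjusted p up to 0.0648). In all, 1 of 32 matrix genes was called higher and 3 lower, against 2.2% and 1.32% of all genes, with a median of -0.16. By pair the median was -0.62 and -0.53 in replicate 3 of mock and conditioned medium and -0.02 to 0.03 in the others. Without replicate 3, 3 were called higher and 3 lower, with a median of -0.0013. With a filter of at least 2 CPM in at least 3 libraries, 2 of 25 were called higher and 1 lower, with a median of -0.02.

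Inflammatory cytokines had the lowest median of the 33 lists, -0.74, with 0 called higher and 2 lower, and the pairs of replicate 3 differed from the others. The median over 18 genes was -1.48 and -1.91 in the replicate 3 pairs of mock and conditioned medium, against 0.38 and -0.32 in mock replicates 1 and 2 and -0.25 and -0.22 in conditioned medium. Without replicate 3 it was -0.13, with 2 called higher and 2 lower. The monocyte chemokine CCL2 fell by 1.49 ± 0.24 (log2; adjusted p = 0.00619) and was at 14.3 and 11.8 CPM in EV replicate 3 of mock and conditioned medium and at 5.00 and 3.86 in S5, but at no more than 0.547 CPM in replicates 1 and 2 of either line. The neutrophil chemokine CXCL1 fell from 2.99 to 0.954 CPM, a call lost without 7 of the 12 libraries (adjusted p up to 0.0802). CCL2 was not called without replicate 3 (adjusted p = 0.179). TNF was at 11.2 CPM in EV and 4.46 in S5 (adjusted p = 0.148) and IL1B at 75.5 and 25.4 (adjusted p = 0.379). Of 21 NF-kB genes only TNFAIP2 was called, from 60.4 to 75.8 CPM, without overlap and without its call when 9 of the 12 libraries were left out in turn (adjusted p up to 0.0837).

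Cell cycle genes differed between the lines in opposite directions in replicate 3 and in replicates 1 and 2. Of 42 members 0 were called over all libraries (median -0.0027). The median of the 42 genes was -0.54 and -0.28 in mock replicates 1 and 2 and -0.39 and -0.21 in conditioned medium, with 1, 3, 0 and 8 of the 42 above 0. In replicate 3 it was 0.64 in mock and 0.51 in conditioned medium, with 42 and 41 of the 42 above 0. Without replicate 3, 33 of 42 were called lower, 0 higher, against 3.82% of all genes called lower in that fit. RRM2, a ribonucleotide reductase subunit, was at 93.9 and 82.7 CPM in EV mock replicates 1 and 2 and 48.6 and 54.5 in S5, while replicate 3 had 167 in EV and 186 in S5. CENPF, a centromere protein, was at 58.2 and 45.3 CPM in EV mock replicates 1 and 2 and 26.7 and 38.8 in S5, with 137 and 176 in replicate 3. Replicates 1 and 2 are the same in direction in both media, and the opposite sign in replicate 3 was not tested for its own sake.

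Of 16 immature myeloid genes, MS4A3 and CLEC12A rose in S5. The median of the 16 was 0.64, with 15 estimates above 0. By pair it was 0.28 and 0.23 in mock replicates 1 and 2, 0.36 and 0.24 in conditioned medium, and 1.25 and 1.73 in the replicate 3 pairs. MS4A3, a marker of granulocyte-monocyte progenitors, was at 0.697 and 0.581 CPM in EV mock replicates 1 and 2 and 1.72 and 2.43 in S5, and at 3.26 in EV mock replicate 3 against 21.2 in S5. In conditioned medium replicate 3 it was 0.884 CPM in EV and 22.1 in S5. It rose by 2.23 ± 0.48 on the log2 scale (adjusted p = 0.0378), a call lost without 7 of the 12 libraries (adjusted p up to 0.14). CLEC12A, an inhibitory lectin receptor, rose from 10.2 ± 1.62 to 16.5 ± 3.92 CPM without overlap, a call lost only without EV mock 3 (adjusted p = 0.0509). The granule protease genes ELANE, PRTN3 and AZU1 were at 55.6, 51.4 and 290 CPM in EV and 164, 206 and 535 in S5 without passing the test (adjusted p = 0.061, 0.0797 and 0.06). Without replicate 3 the median was 0.30, and 7 of 15 members were called higher.

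**Figure D4:**
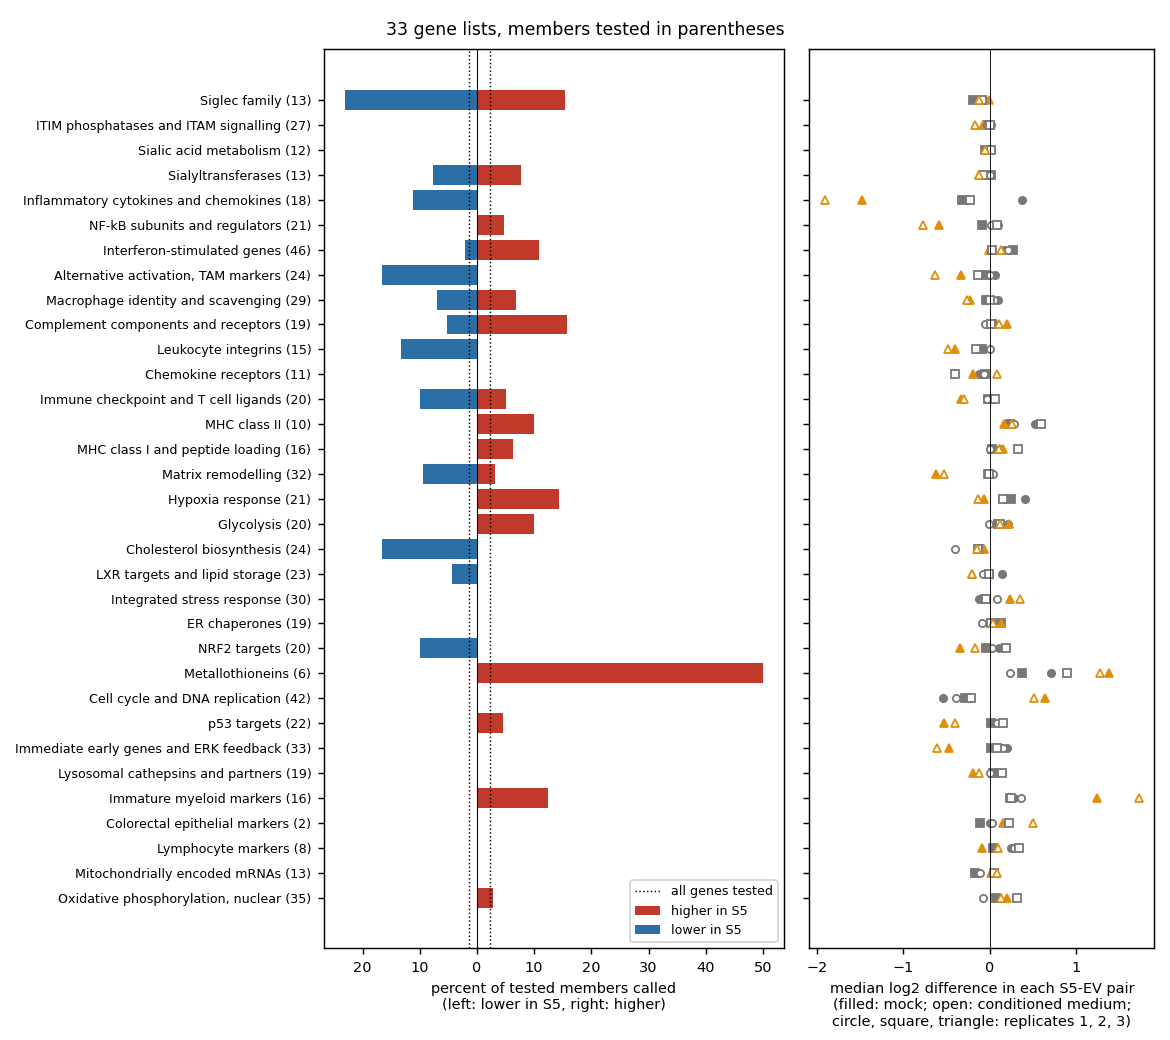
Left, percent of tested members called higher (right of 0) or lower (left of 0) in S5 for 33 gene lists, with dotted lines for all genes tested. Right, median log2 difference of each list in each of the 6 S5-EV pairs: for cytokines, cell cycle, immediate early and immature myeloid genes the replicate 3 pairs (triangles) lie away from the other 4.

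Of 24 cholesterol synthesis genes, 4 were called lower and 0 higher, against 1.32% of all genes called lower, and 22 had estimates below 0 (median -0.17). SQLE, squalene epoxidase, was at 373, 383 and 366 CPM in EV mock and 310, 338 and 211 in S5 mock, and at 337, 306 and 396 in EV CM and 239, 234 and 222 in S5 CM. Within each medium the S5 libraries lay below the EV libraries, with overlap across media, and SQLE fell by 0.49 ± 0.11 on the log2 scale (adjusted p = 0.024). HMGCS1, an early enzyme of the pathway, fell from 153 ± 7.51 to 127 ± 18.2 CPM and SC5D from 157 to 126. SQLE, HMGCS1 and SC5D lost their calls without 6, 10 and 9 of the 12 libraries (adjusted p up to 0.0772, 0.0756 and 0.1). Without replicate 3 the median was -0.19 with 7 called lower, against 3.82% of all genes. Of 23 LXR and lipid storage genes, NPC1, the lysosomal cholesterol exporter, fell from 39.5 to 32.0 CPM, lost without 9 of the 12 libraries (adjusted p up to 0.107).

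Of 20 glycolysis genes ALDOC rose from 39.3 ± 25.0 to 58.3 ± 38.1 CPM and PGAM1 from 157 ± 17.5 to 205 ± 47.0. Of 21 hypoxia response genes MXI1, BNIP3 and PFKFB3 rose, by 0.57, 0.52 and 0.29 on the log2 scale, and 0 were called lower. PGAM1 and these 3 hypoxia genes lie on chromosome 10, described below. Without replicate 3, 8 of the 21 hypoxia genes were called higher and 0 lower, against 4% and 3.82% of all genes. The median of the 21 by pair was 0.16 to 0.41 in replicates 1 and 2 and -0.06 and -0.13 in replicate 3. Metallothioneins, which bind zinc and copper, had 3 of 6 members called higher (median 0.85). MT1E rose from 3.61 ± 1.30 to 8.46 ± 6.33 CPM, MT1F from 2.98 to 5.92 and MT1G from 0.406 to 2.00. They are neighbours with similar sequences on chromosome 16, and S5 mock replicate 3 was highest for MT1E, at 19.8 CPM. Of 20 NRF2 targets the glutathione synthesis gene GCLC fell from 181 to 131 CPM and NQO1 from 30.4 to 21.6, calls lost without 3 and 7 of the 12 libraries (adjusted p up to 0.063 and 0.0692). Estimates were above 0 for 10 of these targets and below 0 for 10 (median -0.03). Without replicate 3 their median was 0.098, with 1 called higher and 1 lower. Of 22 p53 targets BBC3 rose from 8.33 to 11.6 CPM, lost without 7 of the 12 libraries (adjusted p up to 0.0802), and 5 members were called higher without replicate 3. Of 35 nuclear oxidative phosphorylation genes ATP5F1C, also on chromosome 10, rose from 62.8 to 81.8 CPM.

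Of 33 immediate early and ERK feedback genes 0 were called, ETV5 standing at 164 CPM in EV and 131 in S5 (adjusted p = 0.0537) and KLF2 at 3.56 and 5.83 (adjusted p = 0.082). Their median was -0.47 and -0.61 in the replicate 3 pairs and between 0.01 and 0.20 in the others, and 6 members were called higher and 0 lower without replicate 3. Of 30 stress response and amino acid supply genes 0 were called, VLDLR being at 77.9 and 101 CPM and SHMT2 at 170 and 201. The 19 ER chaperones, 19 cathepsins and partners and 13 mitochondrially encoded mRNAs also held 0 called genes. Without replicate 3, 1 ER chaperone was called higher and 1 lower, 4 cathepsins and partners higher and 2 lower, and 2 mitochondrially encoded mRNAs lower. Over all 33 lists, 55 of 660 members tested were called (8.33%, against 3.53% of all genes), in 22 lists. The lists and members were chosen with earlier results of these data known, so this comparison is not independent of the data. In the NF-kB, LXR, p53 and oxidative phosphorylation lists the 1 member called made up 4.76%, 4.35%, 4.55% and 2.86%, near the share of all genes.

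Genes of chromosome 10 were higher in S5 as a group, which was singled out after the values by chromosome were seen. Of 615 genes tested there 79 were called higher and 1 lower (13.0%, against 3.18% of the 16628 genes elsewhere), and they made up 20.8% of all rises. The median log2 fold change was 0.19 (1.14-fold) on chromosome 10 and 0.01 elsewhere, and 81.8% of its genes had estimates above 0 against 51.1% elsewhere. The medians of the other 22 chromosomes ran from -0.05 (chromosome 18) to 0.07 (chromosome 22), and in single pairs from -0.12 to 0.18, the highest on chromosomes 16 and 22 in mock replicate 3. The shift was present in each pair: chromosome 10 minus the rest was 0.185 ± 0.0274 (SD, n = 6 pairs), from 0.148 to 0.216. It was spread over the chromosome, with medians above 0 in all 13 windows of 10 Mb that held at least 20 genes (0.0999 to 0.293). Of 256 such windows elsewhere 5 had a median over 0.1, against 12 of the 13.

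PDCD4, an inhibitor of translation (chromosome 10, 110871795 to 110900006), was at 32.0, 33.3 and 32.0 CPM in EV mock and 46.6, 50.2 and 54.4 in S5 mock. In conditioned medium it was at 29.7, 32.7 and 28.6 CPM in EV and 46.2, 48.8 and 56.3 in S5. The lines did not overlap and the log2 fold change was 0.68 ± 0.07 (adjusted p = 0.000589). PDLIM1 rose from 1.72 ± 0.317 to 3.80 ± 0.609 CPM, the autophagy receptor OPTN from 4.87 to 7.75 and LZTS2 from 71.0 to 92.4, all without overlap. The proteoglycan SRGN rose from 343 ± 120 to 554 ± 263 CPM, AIFM2 (FSP1), which protects from ferroptosis, from 3.50 to 5.96, the cadherin CDH23 from 17.0 to 26.6 and the fatty acid oxidation enzyme ECHS1 from 26.3 to 37.4. ANXA8, which has a near-identical copy, rose from 0.323 to 1.39 CPM. IFIT1, PGAM1, MXI1, BNIP3, PFKFB3 and ATP5F1C, named above in their lists, also lie there.

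The shift was 0.172 to 0.195 in all 22 other settings tried. In the fit of all 18 libraries chromosome 10 minus the rest was 0.18 for S5 over EV, 0.26 for S14 over EV, which share the EV libraries, and 0.08 for S14 over S5. DNA copy number was not measured here.

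**Figure D5:**
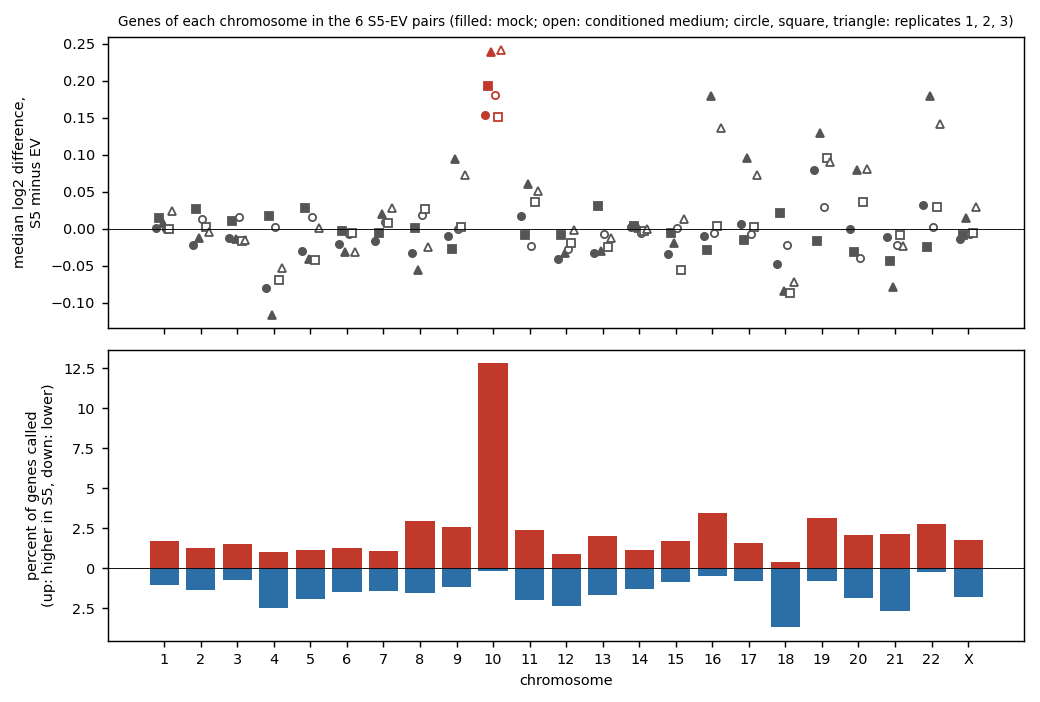
Top, median log2 difference between S5 and EV of the genes of each chromosome (x axis) in each of the 6 pairs. Bottom, percent of its tested genes called higher (up) or lower (down) in S5. Chromosome 10 has a median of at least 0.151 in all 6 pairs and 12.8% of its genes called higher, while chromosomes 16 and 22 reached 0.18 in mock replicate 3.

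To determine whether the line difference depended on the medium, the difference between the line effects in conditioned and in mock medium was tested. By edgeR 0 genes were called, 139 had an unadjusted p under 0.05, and DESeq2 also called 0. The estimates could still differ: CD163 fell by 0.92 in mock and by 1.57 in conditioned medium (log2), and CXCL1 by 0.72 and 2.12, but neither difference passed the test.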

How the data were processed

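The authors deposited raw read counts per gene, made with HISAT2 on GRCh38 per the submitters' processing notes; no source used here names the HISAT2 version, counting program, strand setting or filters, and reads of overlapping and antisense genes cannot be told apart. The TPM values the authors deposited in the same table were not used. Per the labels' protocols, NucleoZol was used to extract RNA and the library kit was TruSeq Stranded mRNA. The table listed 60623 genes, 16083 without a symbol, and 58516 identifiers (96.5%) were found in GENCODE 29, the source of positions. Members and gene lists were chosen with earlier results of these data known.

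The 12 EV and S5 libraries were tested with edgeR 4.0.16 (limma 3.58.1, R 4.3.3): default expression filter by group, TMM factors, a robust quasi-likelihood fit with line, medium and replicate number as terms, and Benjamini-Hochberg adjustment over 17243 genes. Effects within a medium and their difference came from a fit with 1 mean per group plus replicate number. Genes were called at an adjusted p under 0.05. Errors of log2 fold changes are standard errors, and CPM are scaled by TMM. The replicate number was kept as a term because libraries of the same number deviated together from their group means. The 18 pairs of such libraries from different groups had correlations of 0.28 to 0.81. Of the 12 libraries, 10 correlated best with one of their own number. Among replicates 1 and 2 these correlations were 0.28 to 0.62 (median 0.42), and 0.17 to 0.54 (median 0.35) between libraries of different number. Replicate 3 standing apart in each group of 3 would by itself make replicates 1 and 2 deviate together. Pairing of replicates 1 and 2 by number is therefore little shown. DESeq2 1.42.0 was an alternative. Floors of 3 counts cover counting error only. The fit was checked on counts simulated without line differences that vary by replicate number. This check does not cover differences such as those of replicate 3.

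Named genes were SIGLEC5 and SIGLEC14; up to 15 rises and 15 falls with the largest fold among called genes of at least 2 CPM in the higher line and 1 direction in all 6 pairs; and up to 3 called members per list by p (or, in lists without one, 2 members of at least 1 CPM). Chromosome 10 genes and genes without a place in this rule (ISG15, CIITA, TNF, IL1B, C1QA, TYROBP, ELANE, PRTN3, AZU1, GPR34, GPR82, THBD, CD93 and the further called list members) were chosen after their values were seen. Some genes that the rule names are not reported here.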

Additional observations from a re-analysis of the deposited data

Results flagged for a closer look

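SIGLEC5 (ENSG00000105501) had line effects of opposite sign in the media: its log2 fold change of S5 over EV was -0.55 in mock and 0.52 in conditioned medium, a difference of 1.07 that the test of the difference put at an unadjusted p of 0.0437 and an adjusted p of 1 (edgeR quasi-likelihood test). It rests on 8 to 24 reads a library. Its part in any other result was not tested.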

How the results depend on the processing

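With the replicate block removed (no pairing of libraries by number), the line effect called 21 genes, all among the 608, and 3 members of the gene lists in place of 55; 0 genes were called in mock or in conditioned medium. DESeq2 called 1166 genes for the line effect (595 shared), 122 in mock, 120 in conditioned medium and 112 list members. The fit of all 18 libraries called 117 (113 shared), 3, 0 and 15. With no low count filter, 94 genes were called in mock and 115 in conditioned medium, and 646 for the line effect, of which 51.2% were higher against 62.5% in the reported fit. Upper-quartile scaling (627), RLE scaling (615) and a stricter filter (624) changed the line effect count by less than 1.5 times.

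With single libraries left out, the line effect called 306 to 828 genes, the mock effect 0 to 33, the conditioned medium effect 0 to 66 and the lists 33 to 69 members. With a replicate number left out in every group these were 49 to 1342, 0 to 267, 0 to 260 and 8 to 164, the highest each without replicate 3. The interaction stayed at 0 calls in each setting. The log2 fold change of SIGLEC5 ran from -0.19 to 0.119 with single libraries left out and changed sign without EV mock replicate 1 (0.112), S5 mock replicate 1 (0.119), S5 mock replicate 2 (0.0491) or replicate 1 (0.033); the cause was not tested. The other genes named by the rule and the named chromosome 10 genes kept their direction in all settings in which they were tested. For the remaining genes named here, direction across these settings was not examined. Low counts limit genes such as SIGLEC5, at under 25 reads a library.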

Other observations

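Of the 526 called genes with a position off chromosome 10, 59 pairs of adjacent called genes lay less than 100 kb apart, of which 51 had 1 direction (33 both higher, 18 both lower) and 8 opposite directions, IFI6 and AHDC1 among them. GPR34 and GPR82 on chromosome X lie 26878 bases apart and fell by 0.91 and 0.68 on the log2 scale, and THBD and CD93 on chromosome 20, both surface glycoproteins of monocytes and endothelium, lie 29608 bases apart and fell by 0.51 and 0.38. MMP8 and MMP1 lie 62870 bases apart, and C1QC and C1QB 4652 bases apart. These pairs were chosen after their values were seen, and no test was made of how often called genes are neighbours.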
